A study of Mus musculus with 8 samples.

Results

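Sphk1, the kinase that makes sphingosine 1-phosphate, lies on the distal part of mouse chromosome 11, and the genes described here are 59 listed neighbours on both sides of it. A member was measured through probe sets annotated to that gene alone. Of the 59 genes, 56 had such a probe set (103 probe sets of the 45101 on the array), and 55 genes with 78 probe sets were bright enough to be tested, of 12362 genes and 24115 probe sets tested in all. Fdxr, Sumo2 and Galk1 had no probe set of their own, and Slc16a5 did not pass the filter on dim probe sets. In gene order, the members lie between places -52 and 50 counted from Sphk1, with 34 on the lower-numbered side and 25 on the higher-numbered side. The members were chosen by the difference measured between the 2 transgenic groups along the chromosome, so that difference is described for these genes and not tested.

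Expression was measured in ankle joints of 5-month-old mice on 8 single-colour Affymetrix arrays. The first group had 3 arrays of mice with a human TNF transgene and Sphk1 labelled functionally null, written here as the arrays labelled Sphk1 null. The second had 3 arrays of mice with the same human TNF transgene and normal Sphk1 (hTNF), and the third had 2 arrays of wild-type mice with normal Sphk1. The labels used here do not give the promoter of the transgene, the genetic background of the strains or how Sphk1 was inactivated. Whether the mice of a group shared a litter is not given either, so a p-value here reflects the spread from array to array, part of which may be technical.

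Human TNF transgenes in mice are used as a model of inflammatory arthritis, in which the joint lining thickens and fills with inflammatory cells. A gene inactivated by targeting in embryonic stem cells and then crossed into another strain carries with it a stretch of chromosome from the strain in which it was made, and alleles of neighbouring genes are then inherited together with the targeted gene. Whether this applies to these mice was not tested. Chromosomal neighbours need not share a function. The members here include sialyltransferases, ubiquitin ligases, splicing and chromatin proteins, epithelial adhesion proteins and regulators of membrane traffic.

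Array medians lay between 6.84 and 6.89 log2, and over the tested probe sets the arrays of 1 group correlated at 0.962 to 0.985. Arrays of 1 group differed in sex-linked transcripts. High Xist stood beside raised Y-linked Eif2s3y on 3 arrays: replicate 1 of the arrays labelled Sphk1 null (Xist 11.19, Eif2s3y 9.14 log2), hTNF replicate 1 (13.05 and 6.6) and wild-type replicate 2 (13.09 and 6.91). The other arrays with high Xist had Eif2s3y at 3.46 to 3.81. Markers of muscle, cartilage, bone and synovial lining were present on every array, and 3 of these lists were lower on both transgenic groups than on wild type. The mean of 5 muscle genes was 12.89 to 13.21 log2 on the arrays labelled Sphk1 null, 12.81 to 13.15 on hTNF arrays and 14.31 to 14.33 on wild-type arrays. The mean of 5 cartilage genes was 9.27 to 9.36, 9.4 to 9.63 and 10.04 to 10.17 in the same groups, and that of 3 synovial lining genes 10.89 to 11.1, 10.89 to 10.96 and 11.75 to 11.92. The lining shift lay mostly in Clic5 (8.79 to 9.63 on transgenic arrays, 11.64 and 11.22 on wild type). Prg4 read 14.3 to 14.52 on all 8 arrays. Has1 on the arrays labelled Sphk1 null (9.5 to 9.75) overlapped wild type (9.64 and 9.51). Of the cartilage genes, Acan and Col9a1 were lower on every transgenic array, and Col2a1, Comp and Matn3 were not. Bone markers overlapped, at 9.69 to 9.98, 9.62 to 10.05 and 9.71 to 10.03. The 3 shifts move with every comparison against wild type below, and their part in it was not tested. In whole tissue, fewer cells of a type and less RNA per cell cannot be told apart.

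Sphk1 itself was brightest on the arrays labelled Sphk1 null, at 9.94 to 10.22 log2 on its tested probe set, against 8.28 to 8.65 on hTNF arrays and 7.16 to 7.25 on wild-type arrays. The 3 groups did not overlap. A second, dim Sphk1 probe set read 6.12 to 6.74 on all 8 arrays. The level thus goes against the label. Where these probe sets lie with respect to the inactivated part is not stated, and every direction below that rests on the label carries this limit.

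Among the neighbours, the differences between the arrays labelled Sphk1 null and hTNF arrays are described by place along the chromosome. The median size of the difference, without its sign, was 0.137 log2 over the 55 members and 0.100 log2 over all 12362 genes. It was 0.300 over the 10 measured members nearest Sphk1 on the higher-numbered side, of which 4 (St6galnac2, BC018473, St6galnac1 and Mettl23) differed by at least 0.5 log2. Over the 10 nearest on the lower-numbered side it was 0.148, and none differed by that much. For the 35 other members the median size was 0.113, with Grb2, H3f3b and Smim5 beyond 0.5 log2. For the 22 tested genes of the stretch that are not on the list it was 0.097, with Socs3 beyond 0.5 log2, and for the 968 other tested genes of chromosome 11 it was 0.103. In all, 7 of 55 members (12.7%) and 337 of 12362 genes (2.73%) differed by at least 0.5 log2. BC018473 passed the filter only through the arrays labelled Sphk1 null, and without it 6 of 54 members differed by that much. The median size over the members was 0.137 log2 without it too, while the 0.300 includes it and was not recomputed. The same contrast chose the members, so nothing is read from these sizes, places or shares.

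**Figure D1:**
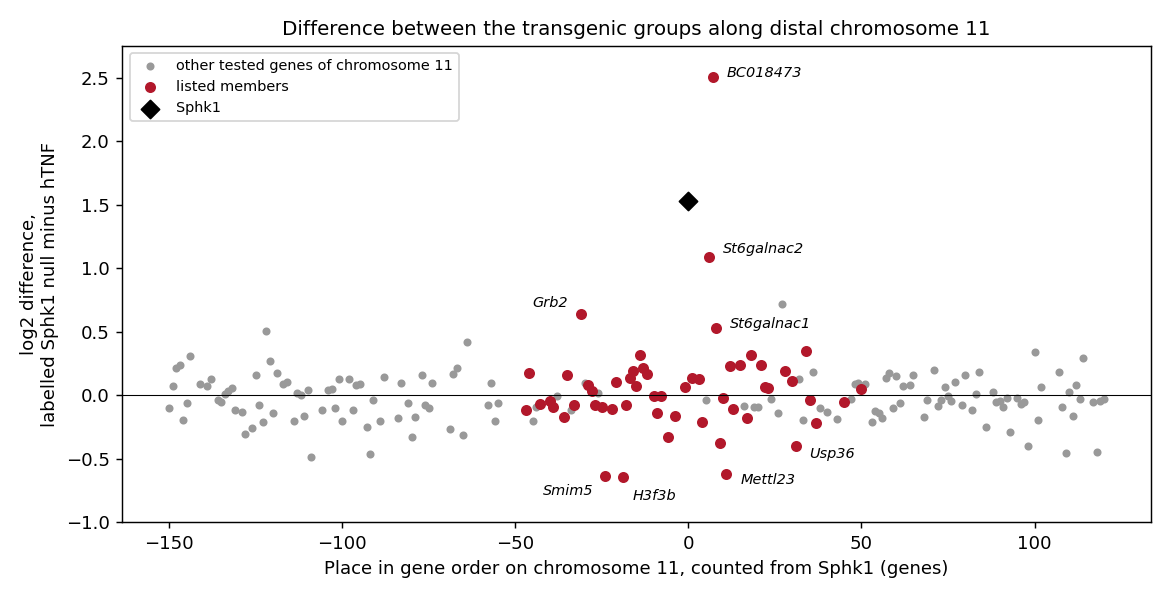
Difference in log2 level between the arrays labelled Sphk1 null and hTNF arrays (vertical axis) for tested genes of distal chromosome 11 in gene order (horizontal axis, genes from Sphk1). Red points are listed members, grey points other tested genes and the diamond is Sphk1. BC018473 (2.51) and St6galnac2 (1.09) stand above the rest on the higher-numbered side, while H3f3b (-0.64), Smim5 (-0.63) and Mettl23 (-0.62) are lowest.

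A run of 4 consecutive genes at places 6 to 9 after Sphk1 held 3 of the 4 members highest in this contrast beside Mxra7, which was among the 6 lowest. St6galnac2, a sialyltransferase that caps O-linked sugar chains of glycoproteins, read 8.28, 7.84 and 8.03 log2 on the arrays labelled Sphk1 null, 6.85, 7.06 and 6.97 on hTNF arrays and 7.49 and 7.74 on wild-type arrays. The wild-type arrays lay between the 2 transgenic groups, and no groups overlapped. The difference between the arrays labelled Sphk1 null and hTNF arrays was 1.09 ± 0.14 log2 (SE, 3 arrays against 3). It ranked 9 from the highest of 12362 genes, in the contrast that chose the members, so nothing is read from this rank. A second, dim St6galnac2 probe set read 4.76 to 4.91 on the 8 arrays and showed no such order.

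BC018473, a locus named after its cDNA clone and given no role here, read 7.91, 7.05 and 7.88 log2 on the arrays labelled Sphk1 null. It read 5.04, 5.15 and 5.13 on hTNF arrays and 5.31 and 5.15 on wild-type arrays. The arrays labelled Sphk1 null stood apart from all 5 others, among which the groups met at 5.15. The mean of the arrays labelled Sphk1 null exceeded 61.2% of all probe sets, against 20.7% for the hTNF mean and 22.3% for the wild-type mean, both below the value of the filter. The group means of the 2 transgenic groups lay 2.51 ± 0.23 log2 apart, a distance that depends on the background: with an offset of 32 on the linear scale it was 1.78. A second BC018473 probe set stayed between 4.27 and 4.69 log2 on every array.

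St6galnac1, a sialyltransferase of the same family, read 7.34, 7.74 and 7.68 log2 on the arrays labelled Sphk1 null, against 7.12, 6.93 and 7.13 on hTNF arrays and 6.89 and 7.0 on wild-type arrays. The arrays labelled Sphk1 null were again above all others, and the other 2 groups overlapped. Its difference was 0.53 ± 0.14 log2 between the transgenic groups. Mxra7, a matrix-remodelling-associated membrane protein and the next gene in order, went the other way, with 10.13, 9.80 and 9.97 log2 on the arrays labelled Sphk1 null, 10.38, 10.31 and 10.33 on hTNF arrays and 10.16 and 10.12 on wild-type arrays. The 2 transgenic groups did not overlap, but the arrays labelled Sphk1 null overlapped wild type. Its second tested probe set gave a similar difference (-0.33 log2, against -0.37 for the brighter one).

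Jmjd6 and Mettl23, the next genes in order, start close together and run in opposite directions, and only Mettl23 was set apart on the arrays labelled Sphk1 null. Their promoter windows are shown because the 2 starts share sequence while the levels differ. Each window covers 250 bases before and 50 bases after the gene start in RefSeq's GRCm38.p6 table. Mettl23 lies on the plus strand at chr11:116843265-116843564 and Jmjd6 on the minus strand at chr11:116843400-116843699. Each is written 5′ to 3′ on its own strand, with the 165 bases present in both windows in capitals.
Mettl23: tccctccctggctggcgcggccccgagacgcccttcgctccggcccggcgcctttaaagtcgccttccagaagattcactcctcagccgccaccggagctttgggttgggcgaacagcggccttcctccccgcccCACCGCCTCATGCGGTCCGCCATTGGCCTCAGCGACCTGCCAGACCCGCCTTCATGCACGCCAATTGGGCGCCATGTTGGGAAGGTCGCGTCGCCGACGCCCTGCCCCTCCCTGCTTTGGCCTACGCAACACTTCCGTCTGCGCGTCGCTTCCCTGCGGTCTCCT
Jmjd6: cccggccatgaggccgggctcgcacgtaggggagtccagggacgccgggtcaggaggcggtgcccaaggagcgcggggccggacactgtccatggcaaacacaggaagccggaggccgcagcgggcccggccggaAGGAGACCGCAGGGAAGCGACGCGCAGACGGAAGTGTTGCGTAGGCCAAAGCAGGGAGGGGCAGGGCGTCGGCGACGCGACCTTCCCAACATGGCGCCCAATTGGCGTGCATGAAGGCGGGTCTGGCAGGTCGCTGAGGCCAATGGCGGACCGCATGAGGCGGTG
The windows held 68.3% (Mettl23) and 70.7% (Jmjd6) of guanine and cytosine. On both strands, the letters CCAAT matched 3 times in each, all within the shared stretch, and 2 of the matches overlapped each other. Of the 32851 RefSeq promoter windows of the same length, 37.4% held these letters. The letters GGGCGG, also on both strands, matched 1 time in the Mettl23 window and 0 times in the Jmjd6 window, and 35.7% of all windows held them. The letters TATAAA matched 0 times in either, and 13.6% of all windows held them. A match describes letters only. Of the 59 members, 39 had a window in that table.

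Mettl23, a methyltransferase of the nucleus, read 9.11, 8.59 and 8.88 log2 on the arrays labelled Sphk1 null, against 9.43, 9.57 and 9.44 on hTNF arrays and 9.76 and 9.68 on wild-type arrays. The arrays labelled Sphk1 null were below all others. A second tested Mettl23 probe set kept the same order, at 8.61, 8.05 and 8.50 on the arrays labelled Sphk1 null, 9.01, 9.20 and 9.05 on hTNF arrays and 9.51 and 9.59 on wild-type arrays. The difference between the transgenic groups was -0.62 ± 0.13 log2 for the first probe set and -0.70 for the second. Jmjd6, an oxygenase of the Jumonji family, read 9.21, 9.17 and 9.20 log2 on the arrays labelled Sphk1 null, 9.20, 9.13 and 9.32 on hTNF arrays and 8.99 and 9.05 on wild-type arrays. The transgenic groups overlapped, with a difference of -0.02 ± 0.09 log2. The 2 genes overlap in the gene table, and how far their probe sets separate the transcripts was not tested.

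**Figure D2:**
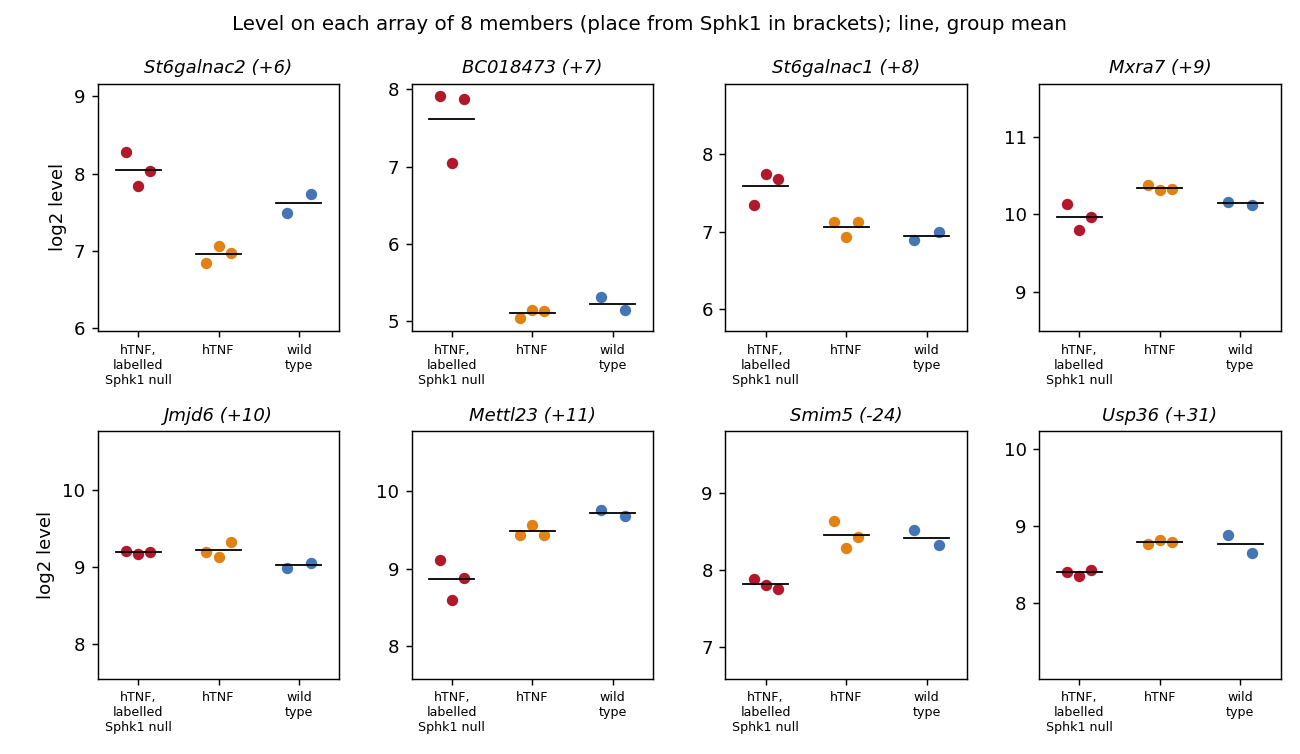
Log2 level (vertical axes, all of the same span) on each of the 8 arrays for 8 members, by group, with the place from Sphk1 in brackets and a line at each group mean. The arrays labelled Sphk1 null lie above all others for St6galnac2, BC018473 and St6galnac1, below all others for Mettl23, Smim5 and Usp36, and among the hTNF arrays for Jmjd6.

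Members farther from Sphk1 were also low on the arrays labelled Sphk1 null. Smim5, a small membrane protein 24 places before Sphk1, read 7.89, 7.81 and 7.75 log2 there, against 8.64, 8.28 and 8.43 on hTNF arrays and 8.52 and 8.32 on wild-type arrays, and no array of the other groups came as low. Usp36, a deubiquitinase of the nucleolus 31 places after it, read 8.41, 8.36 and 8.43, against 8.77, 8.82 and 8.80 on hTNF arrays and 8.89 and 8.65 on wild-type arrays, again without overlap. Its second tested probe set differed by -0.20 log2 between the transgenic groups, against -0.40 for the brighter one. H3f3b, which encodes the histone variant H3.3, read 8.12, 8.56 and 8.10, against 9.26, 8.33 and 9.12 on hTNF arrays and 9.23 and 9.01 on wild-type arrays. For H3f3b the transgenic groups overlapped through hTNF replicate 2. Without that array its difference was -0.93 log2, against -0.64 with it. Exoc7, a subunit of the exocyst that tethers secretory vesicles, differed by -0.33 ± 0.16 log2 and overlapped.

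Grb2, the adaptor that links growth factor receptors to Ras, had probe sets that disagreed. The brighter one read 10.77, 11.02 and 10.87 log2 on the arrays labelled Sphk1 null, 9.88, 10.42 and 10.43 on hTNF arrays and 10.02 and 9.62 on wild-type arrays. The other read 9.81, 9.59 and 9.68 on the arrays labelled Sphk1 null, 9.63, 9.84 and 9.81 on hTNF arrays and 8.96 and 9.06 on wild-type arrays. The first set the arrays labelled Sphk1 null apart from all others, by 0.64 log2 from hTNF, and the second did not (-0.07). Srsf2, a splicing factor 12 places after Sphk1, had 4 tested probe sets whose differences between the transgenic groups ran between -0.14 and 0.71 log2. Its brightest gave 0.23, with the arrays labelled Sphk1 null above all others. Srsf2 overlaps Mfsd11 in the gene table.

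On their tested probe sets, the members that flank Sphk1 most closely, placed between Evpl and Cygb, overlapped between the 2 transgenic groups. Prpsap1, a regulator of phosphoribosyl pyrophosphate synthesis and the nearest measured gene on the lower-numbered side, differed by 0.07 ± 0.10 log2. The ubiquitin ligase Rnf157 differed by -0.16 ± 0.14, the signal recognition particle subunit Srp68 by -0.01 ± 0.09 and Evpl by -0.14 ± 0.32. On the other side, the ubiquitin-conjugating enzyme Ube2o, directly after Sphk1, differed by 0.14 ± 0.15, Rhbdf2 by 0.13 ± 0.10 and the globin Cygb by -0.21 ± 0.18 (SE, 3 arrays against 3). Rnf157 also had 4 dim probe sets that were not tested. One read 6.32, 6.29 and 6.26 log2 on the arrays labelled Sphk1 null, 6.70, 6.74 and 6.56 on hTNF arrays and 6.67 and 6.58 on wild-type arrays, and another 5.85, 6.05 and 5.89, against 6.34, 6.46 and 6.26 on hTNF arrays and 6.10 and 6.33 on wild-type arrays. On both the arrays labelled Sphk1 null were below all others, and on the other 2 they overlapped. St6galnac2, the next member after Cygb, did not overlap on its tested probe set.

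Counted over all members, the arrays labelled Sphk1 null lay above all 5 other arrays for 9 genes and below all 5 for 5 genes. Among all 12362 genes, 3.87% lay above and 3.8% below. The 9 were Grb2, Fbf1, St6galnac2, BC018473, St6galnac1, Srsf2, Sec14l1, Tmc6 and Syngr2, and the 5 were Nup85, Smim5, Mettl23, Tnrc6c and Usp36. Against hTNF arrays alone, 10 members were higher without overlap, where 5.1% of all genes were, and 6 were lower, where 4.9% were. Of all 12362 genes, 2 passed limma's threshold in this contrast (0.0162%), Sphk1 and BC018473, which entered only through the arrays where it is high. These counts are from the contrast that chose the members, and nothing is read from them. Over the 8 arrays, the members whose centred levels were most like those of BC018473 were St6galnac2 (Euclidean distance 2.37 log2), Grb2 (2.52) and St6galnac1 (2.77). BC018473 was set apart only on the arrays labelled Sphk1 null, so this likeness follows the same contrast and nothing is read from it. For Grb2 it was taken on the brighter of 2 probe sets that disagreed.

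The hTNF arrays were also set against wild type. They stand in the contrast that chose the members too, so this comparison is not free of that choice. Of the 55 members, 12 rose and 7 fell in hTNF against wild type by limma (34.5%), where 36.1% of all tested genes were called (16.5% higher and 19.6% lower), so the members' share was near that of all genes. The other 36 did not pass. The median difference was 0.04 log2 over the members and -0.02 over all genes. Without hTNF replicate 3 there were 12 calls. Over all 24115 probe sets 5862 were called in that fit, against 7965 with all arrays.

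The largest rise was in Lgals3bp, a secreted protein that binds galectins. It read 11.11, 11.63 and 11.85 log2 on hTNF arrays and 10.20 and 10.51 on wild-type arrays, without overlap, a rise of 1.18 ± 0.19 log2 or 2.26-fold (SE, 3 arrays against 2; limma adjusted p = 0.00153). The tripartite-motif ubiquitin ligases Trim65 and Trim47, which lie next to each other, both rose. Trim65 read 7.53, 8.10 and 8.07 on hTNF arrays and 6.86 and 6.70 on wild-type arrays (1.12 ± 0.22 log2, limma adjusted p = 0.00385). Trim47 read 10.35, 10.60 and 10.54 on hTNF arrays and 9.92 and 9.81 on wild-type arrays (0.63 ± 0.13, limma adjusted p = 0.00446). Rnf213, a large ubiquitin ligase, rose by 0.59 ± 0.15 (limma adjusted p = 0.0159). Its wild-type arrays read 9.95 and 10.48, and without wild-type replicate 1 the difference was 0.32 (limma adjusted p = 0.145). It was also not called without hTNF replicate 3 (limma adjusted p = 0.058). Of the 7 tested ubiquitin and SUMO genes, 3 rose and 1, Ube2o, fell (-0.49 ± 0.16, limma adjusted p = 0.0445). Among all tested genes 16.5% rose and 19.6% fell. The Ube2o call was lost without any 1 of the hTNF arrays (limma adjusted p = 0.0885, 0.092 and 0.109) and without wild-type replicate 1, when the difference was -0.30 (0.333).

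Rhbdf2 encodes iRhom2, which carries the protease that sheds TNF to the surface of macrophages. It read 9.24, 9.51 and 9.34 log2 on hTNF arrays and 8.65 and 8.50 on wild-type arrays, and rose by 0.79 ± 0.12 (1.73-fold, limma adjusted p = 0.000926). The groups did not overlap. Unc13d, which primes secretory granules of blood cells for release, read 7.64, 7.86 and 7.75 on hTNF arrays and 7.0 and 7.34 on wild-type arrays, and rose by 0.58 ± 0.15 (limma adjusted p = 0.0156). That call was lost without hTNF replicate 2 (limma adjusted p = 0.0571) and without wild-type replicate 1, when the difference was 0.41 (0.15). Gga3, a sorting adaptor at the Golgi, rose by 0.42 (limma adjusted p = 0.0474), a call lost without hTNF replicate 2 or 3, either wild-type array, or replicate 3 of the arrays labelled Sphk1 null (0.0761 to 0.211). Caskin2, a scaffold protein, fell by 0.60 (0.00396 by limma) and Hid1, needed for Golgi sorting of secretory cargo, fell by 0.50 (0.0328). The Hid1 call was lost without any 1 of the hTNF arrays (limma adjusted p = 0.0895, 0.0517 and 0.0797) and without wild-type replicate 1, when it was -0.28 (0.298). Grb2 differed by 0.42 on its brighter probe set (limma adjusted p = 0.119) and by 0.75 on the other (0.00119), and without hTNF replicate 1 the brighter one was called too (0.017), while without wild-type replicate 2 it was 0.22 (0.543). Of the 12 tested genes of signalling and membrane traffic, 3 rose and 2 fell, where 16.5% of all tested genes rose and 19.6% fell.

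Inflammatory cell markers differed between the same groups and between the wild-type arrays. The mean of 5 macrophage genes was 11.71, 12.06 and 12.11 log2 on hTNF arrays and 9.79 and 9.78 on wild-type arrays. The mean of 7 neutrophil and precursor genes was 10.86, 9.85 and 11.02 on hTNF arrays and 8.2 and 11.81 on wild-type arrays, so wild-type replicate 2 was the highest of these. Their part in the rises of Rhbdf2, Unc13d, Rnf213 and Lgals3bp was not tested.

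Tk1, the thymidine kinase made by cells that replicate DNA, read 9.10, 9.63 and 9.52 log2 on hTNF arrays and 8.16 and 8.61 on wild-type arrays, and rose by 1.03 ± 0.19 (2.04-fold, limma adjusted p = 0.00251). The groups did not overlap. The mean of 7 measured proliferation genes was 8.76, 8.84 and 8.87 on hTNF arrays and 6.92 and 8.44 on wild-type arrays, with both Tk1 and this mean lower on wild-type replicate 1; the part of dividing cells in the Tk1 rise was not tested. Nt5c, a nucleotidase, rose by 0.55 (limma adjusted p = 0.0177) and Pgs1, an enzyme of cardiolipin synthesis in mitochondria, by 0.54 (0.0208) on its brightest probe set. Other tested Pgs1 probe sets differed by 0.52 (limma adjusted p = 0.0458), 0.33 (0.129) and -0.003 (0.993), so not all were called. The Nt5c call was lost without hTNF replicate 3 or wild-type replicate 1 (limma adjusted p = 0.0552 and 0.137), and the Pgs1 call without hTNF replicate 2 or 3 or either wild-type array (0.051 to 0.12). With these, 3 of the 5 tested genes of nucleotide, lipid and mitochondrial metabolism rose and none fell. Of all tested genes 16.5% rose and 19.6% fell, and nothing is read from a count over 5 genes. In the gene table Tk1 overlaps Afmid, Nt5c overlaps Armc7, Pgs1 overlaps Dnah17, Gga3 overlaps Mrps7 and Smim5 overlaps Recql5, and how far the probe sets separate such pairs was not tested.

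Of the 14 tested genes of RNA, chromatin and the nucleus, 2 rose and 2 fell. The shares over all tested genes were 16.5% and 19.6%. Mrpl38, a protein of the mitochondrial ribosome, read 9.36, 9.88 and 9.79 log2 on hTNF arrays and 8.83 and 8.76 on wild-type arrays, a rise of 0.88 ± 0.21 (limma adjusted p = 0.0107). The call was lost without either wild-type array (limma adjusted p = 0.0551 and 0.0604). A second, dimmer Mrpl38 probe set differed by 0.11 (limma adjusted p = 0.565), and the mean of the gene's probe sets by 0.42. Ten1, of the complex that protects telomeres, rose by 0.46 (limma adjusted p = 0.0397), a call lost without hTNF replicate 2 or 3, either wild-type array, or replicate 3 of the arrays labelled Sphk1 null (0.064 to 0.182). Srp68 read 10.41, 10.49 and 10.45 on hTNF arrays and 11.10 and 10.91 on wild-type arrays, and fell by 0.56 ± 0.10 (0.00316 by limma). Tnrc6c, a partner of Argonaute in microRNA silencing, fell by 0.42 (limma adjusted p = 0.01), and this call was lost without wild-type replicate 1 (0.0975). A second tested Tnrc6c probe set differed by -0.30 (limma adjusted p = 0.204). Of the 8 tested transporters and other genes, none was called, where 36.1% of all tested genes were.

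**Figure D3:**
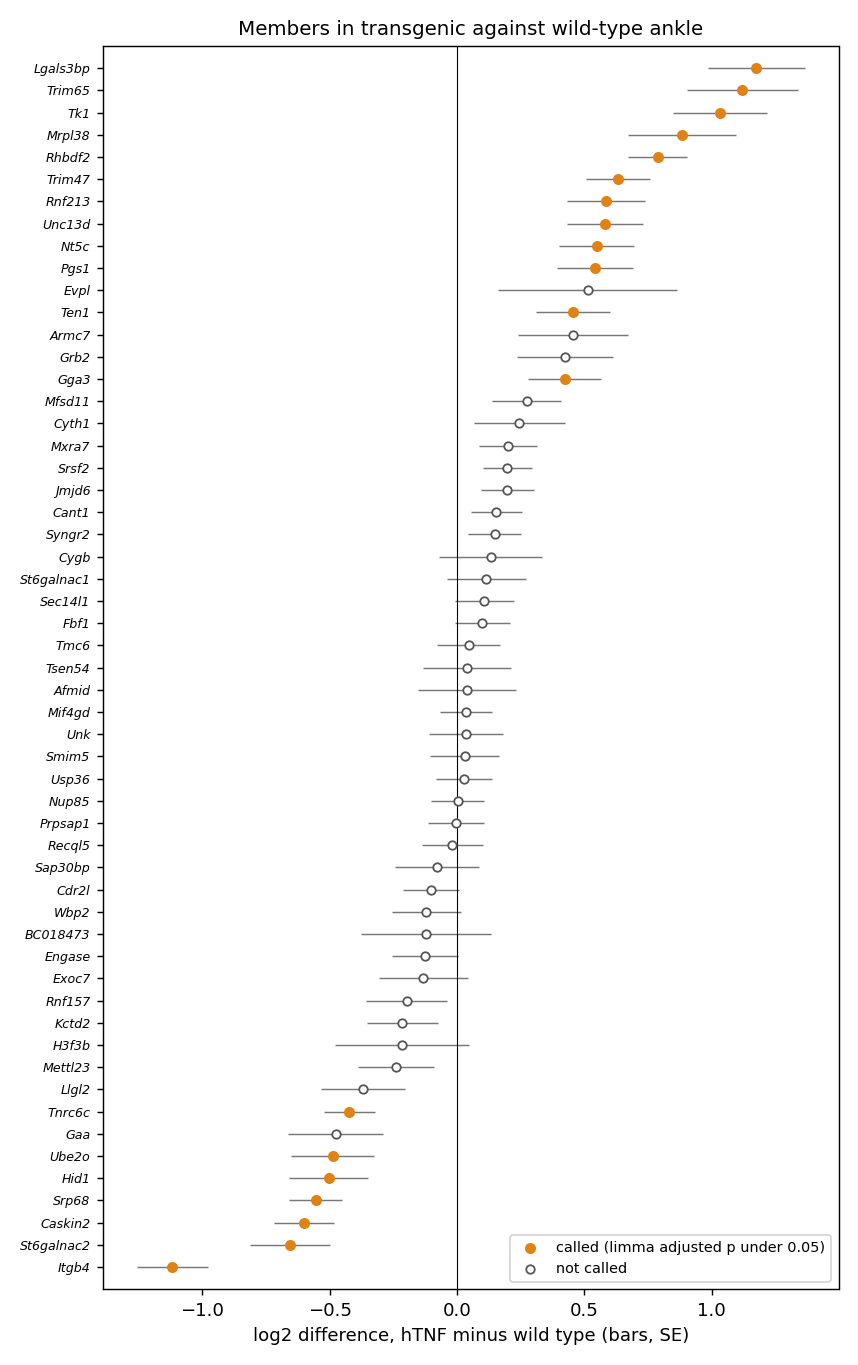
Log2 difference of the 55 tested members between hTNF and wild type (horizontal axis; points, estimates; bars, standard error), ordered by size. Filled points were called by limma: 12 lie right of 0, led by Lgals3bp (1.18), and 7 lie left of 0, with Itgb4 (-1.12) lowest.

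The largest fall was in Itgb4, the integrin chain of the hemidesmosome, which anchors epithelial cells to their basement membrane. It read 8.33, 8.43 and 8.19 log2 on hTNF arrays and 9.61 and 9.26 on wild-type arrays, and fell by 1.12 ± 0.14 (0.461 of the wild-type level; limma adjusted p = 0.000412). The groups did not overlap. The other 2 epithelial members were not called. Evpl, the envoplakin of the cornified envelope, read 8.44, 7.13 and 7.36 on hTNF arrays and 7.13 and 7.13 on wild-type arrays (0.51 ± 0.35, limma adjusted p = 0.309), and without hTNF replicate 1 the difference was 0.12. Llgl2, a regulator of epithelial polarity, read 6.68, 6.57 and 6.61 on hTNF arrays and 7.10 and 6.88 on wild-type arrays. It passed the filter only through the wild-type arrays, so no test is given for it.

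Keratinocyte genes differed widely between arrays of 1 group. The mean of 11 measured keratinocyte genes was 9.98, 6.76 and 9.23 log2 on the arrays labelled Sphk1 null, 11.35, 6.5 and 8.71 on hTNF arrays and 8.23 and 7.2 on wild-type arrays. Evpl was highest on the array with the highest keratinocyte mean, hTNF replicate 1, and at its lowest on arrays labelled Sphk1 null replicate 2 (7.11), hTNF replicate 2 and wild type. Itgb4 stayed between 8.19 and 8.54 on all 6 transgenic arrays. The part of skin in these levels was not tested.

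**Figure D4:**
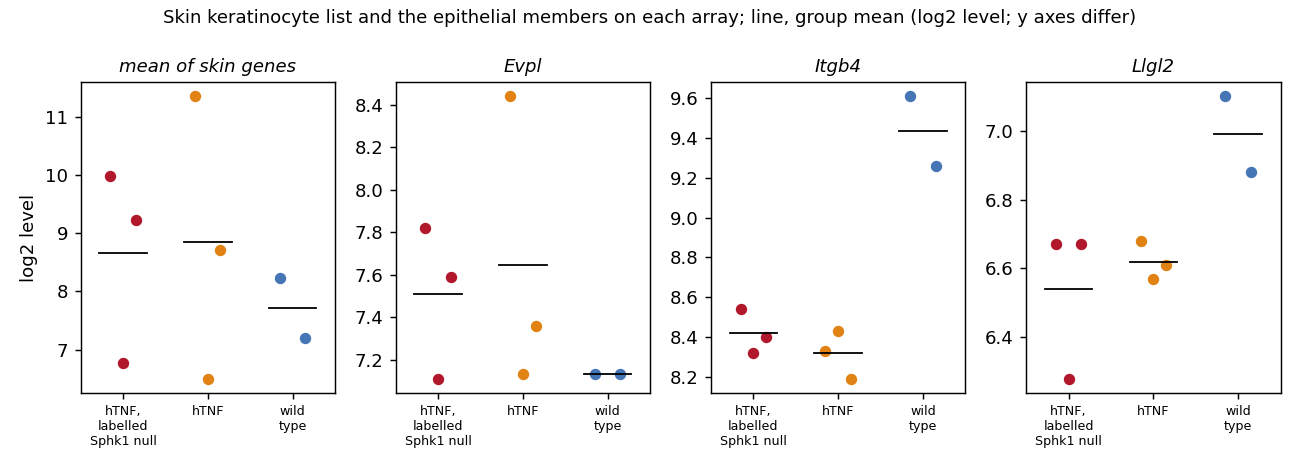
Mean log2 level of 11 keratinocyte genes and log2 level of Evpl, Itgb4 and Llgl2 on each array, by group (vertical axes differ; lines, group means). The keratinocyte mean and Evpl are both highest on hTNF replicate 1 (11.35 and 8.44), while Itgb4 is lower on every transgenic array than on both wild-type arrays.

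Among the 6 tested genes of sugar and glycan handling, Lgals3bp rose and St6galnac2 fell in hTNF against wild type. Of all tested genes 16.5% rose and 19.6% fell. The hTNF level of St6galnac2 also entered the contrast that chose the members. Its fall here was 0.66 ± 0.16 log2 (limma adjusted p = 0.0113), without overlap, and was not called without wild-type replicate 2 (-0.53, limma adjusted p = 0.0928). St6galnac1 differed by 0.12 (limma adjusted p = 0.63). Gaa, the lysosomal glucosidase that breaks down glycogen, read 9.71, 10.17 and 9.83 on hTNF arrays and 10.58 and 10.18 on wild-type arrays (-0.48, limma adjusted p = 0.0796), and was called without hTNF replicate 2 (0.041). Without wild-type replicate 1 it was -0.28 (limma adjusted p = 0.459). Its second tested probe set differed by -0.50 (limma adjusted p = 0.0404).

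The arrays labelled Sphk1 null were also set against wild type. This comparison shares its transgenic arrays with the contrast that chose the members and its wild-type arrays with the previous comparison. Grb2, St6galnac1, St6galnac2, Lgals3bp, Mettl23, H3f3b, Smim5 and Usp36 were among the 6 highest or lowest members between the transgenic groups. Their values on the same arrays are tested again here, so their p-values are not free of that choice. Limma called 19 members higher and 10 lower of 55 (52.7%), where 43.0% of all genes were called (19.1% higher and 23.8% lower), with a median difference of 0.10 log2 over the members. Without replicate 3 of the arrays labelled Sphk1 null there were 24 calls. Over all 24115 probe sets 7594 were called in that fit, against 9395 with all arrays. Of the members, 17 were called in both comparisons with wild type, which use the same wild-type arrays. The share of all genes called in both was not computed, so nothing is read from this count.

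BC018473 is among the 19, but it passed the filter only through the arrays labelled Sphk1 null, so no test is given for it. Grb2 was 1.07 ± 0.19 log2 higher on its brighter probe set (SE, 3 arrays against 2; limma adjusted p = 0.00175) and 0.68 on the other (0.00142). St6galnac1 was 0.64 ± 0.15 higher (limma adjusted p = 0.00913) and lost the call without wild-type replicate 1 (0.0691). St6galnac2, which fell in hTNF, was 0.44 higher than wild type and not called (limma adjusted p = 0.0549). Without replicate 2 of the arrays labelled Sphk1 null it was called (0.0232).

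Mettl23 differed from wild type by -0.86 ± 0.15 log2 (limma adjusted p = 0.00163) on its brighter probe set and by -1.16 on the second (0.000509). In hTNF these differences were -0.24 (limma adjusted p = 0.262) and -0.46 (0.0573). H3f3b differed from wild type by -0.86 ± 0.26 (limma adjusted p = 0.0276), a call lost without replicate 1 or 3 of the arrays labelled Sphk1 null (0.0693 and 0.0849) or either wild-type array (0.156 and 0.0684). Smim5 differed by -0.60 ± 0.14 (limma adjusted p = 0.00654; 0.068 without wild-type replicate 1). Usp36 differed by -0.37 ± 0.11 (limma adjusted p = 0.0253), and was not called without replicate 3 of the arrays labelled Sphk1 null (0.0596) or wild-type replicate 1, when the difference was -0.25 (0.219). The second tested Usp36 probe set differed by -0.09 (limma adjusted p = 0.629). Rises were called in Srsf2 (0.42 on its brightest probe set, limma adjusted p = 0.00673) and the vesicle protein Syngr2 (0.38, 0.0161). Without wild-type replicate 1 the Srsf2 difference was 0.34, and without wild-type replicate 2 that of Syngr2 was 0.33. The other tested Srsf2 probe sets disagreed, at 0.725 (limma adjusted p = 0.00146), 0.86 (0.00229) and -0.17 (0.38).

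Lgals3bp, Rhbdf2 and Itgb4 were called against wild type in both transgenic groups, while St6galnac2 and Ube2o were called in hTNF alone of these 2 comparisons; the difference between the comparisons was not tested. Lgals3bp read 11.90, 11.90 and 11.83 log2 on the arrays labelled Sphk1 null and was 1.52 above wild type (limma adjusted p = 0.000269). Rhbdf2 read 9.52, 9.45 and 9.50 and was 0.92 above wild type (0.00028 by limma). Itgb4 read 8.54, 8.32 and 8.40, overlapping the hTNF arrays, and differed from wild type by -1.02 (limma adjusted p = 0.00045).

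Within the same stretch, 22 genes that are not listed were tested, of which 6 rose and 6 fell in hTNF against wild type. Among all tested genes, 36.1% were called in that comparison (16.5% higher and 19.6% lower). Birc5, a mitotic inhibitor of apoptosis, read 8.58, 8.79 and 8.68 log2 on hTNF arrays and 6.16 and 8.07 on wild-type arrays, a rise of 1.57 (limma adjusted p = 0.0218). Without wild-type replicate 1, which also had the low proliferation mean of 6.92, it was 0.61 (0.091), and without wild-type replicate 2 it was 2.52 (0.00029). Its call was also lost without hTNF replicate 2 or 3 (limma adjusted p = 0.0532 and 0.055). Other large rises were in Socs3, an inhibitor of cytokine signalling (2.44-fold, limma adjusted p = 0.00066), the cytoskeletal Septin9 (1.69-fold, 0.002) and the secreted C1qtnf1 (1.63-fold, 0.00193). The largest falls were in Card14 (0.626 of the wild-type level, limma adjusted p = 0.0221), the ATP synthase subunit Atp5h (0.676, 0.00257), the mitochondrial ribosomal Mrps7 (0.681, 0.00653) and Prcd (0.701, 0.0138). The Card14 call was lost without hTNF replicate 3 (limma adjusted p = 0.0773) or wild-type replicate 1, when the difference was -0.38 log2 (0.222). The Mrps7 call was lost without wild-type replicate 1 (limma adjusted p = 0.0588), and the Prcd call without hTNF replicate 2 or either wild-type array (0.0513 to 0.0998). Socs3 read 11.50, 11.26 and 11.41 log2 on the arrays labelled Sphk1 null, against 10.35, 10.70 and 10.96 on hTNF arrays and 9.55 and 9.22 on wild-type arrays. The 3 groups did not overlap.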

How the data were processed

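For these 8 arrays the authors deposited a single table of log2 values, 45101 probe sets long. The submitters' processing notes name Expression Console (Affymetrix) as well as RMA and MAS5, without saying which of these produced the log2 values. RNA was isolated by TRIzol phase separation and labelled as biotin-cRNA, per the labels' protocols. Arrays were grouped by their labels. Gene names came from the platform's annotation, updated through a GRCm38.p6 gene table: 34945 probe sets had 1 gene, 932 several and 9160 none, and 64 were controls. Summary values can compress changes of very dim and very bright probe sets, and whether these do was not tested.

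Probe sets above 6.87 log2, the median of the table, on at least 2 arrays were tested. Group means were estimated from all 8 arrays together by limma 3.58.1 in R 4.3.3, with an intensity trend, and the fit was tested on simulated data. P-values were adjusted by the Benjamini-Hochberg method over the 24115 probe sets, a call is an adjusted p under 0.05, and "rose" and "fell" are used of calls. The median standard error was 0.15 log2 against wild type and 0.13 between the transgenic groups, set by the number of arrays. The brightest tested probe set stands for a gene. Gene order counts protein-coding genes and members.

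The members and lists were chosen with earlier results of these data known. Genes were named by rule: the 8 largest called rises and falls in hTNF against wild type, the 6 highest and lowest members between the transgenic groups, the 5 measured nearest Sphk1 on each side, a set of role genes, the 3 most like BC018473 and the 4 largest called changes each way among unlisted genes of the stretch. Further genes named, such as Jmjd6, Gga3 and the levels of Socs3, were chosen after their values were seen. Alternatives were the filter, quantile normalization, an offset, the trend, the mean of a gene's probe sets, the replicate number as a block, a Y-linked covariate, a fit of only the groups compared, and leaving out each array.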

Additional observations from a re-analysis of the deposited data

How the results depend on the processing

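With 2 to 3 arrays per group, differences near the median standard error of 0.15 log2 could not be told apart from the spread, and dim probe sets such as BC018473 outside the arrays labelled Sphk1 null are limited by background. None of the called differences recomputed, those of the genes named with a test, changed sign under these alternatives. Leaving out 1 array at a time gave 9 to 19 member calls in hTNF against wild type (5 to 13 higher, 4 to 7 lower) and 17 to 29 for the arrays labelled Sphk1 null against wild type (12 to 20 higher, 5 to 11 lower), with the fewest without wild-type replicate 1. Between the transgenic groups it gave 0 to 1 call (higher 0 to 1), and the median size over the members nearest Sphk1 ran between 0.153 and 0.228 log2. In that contrast 2 members were called, both higher, with quantile normalization and with the Y-linked covariate, and 0 with the mean of probe sets, where the mean of BC018473 fails the filter. Over all probe sets the same contrast gave 2 calls, 6 with quantile normalization, 14 with the Y-linked covariate, 3 without replicate 2 of the arrays labelled Sphk1 null, and 0 with the mean of probe sets or without any 1 of the other 7 arrays. With the mean of probe sets the median size near Sphk1 was 0.137. Without replicate 1 of the arrays labelled Sphk1 null, where Xist and Eif2s3y were both raised, as on 2 other arrays, it was 0.173, and BC018473 differed by 2.36, St6galnac2 by 0.98, St6galnac1 by 0.65 and Mettl23 by -0.75 log2. Calls near the threshold were also lost under other settings. In hTNF against wild type these were Hid1 without a filter (limma adjusted p = 0.0542), with the block (0.0621) and with the mean of probe sets (-0.29 log2, 0.0771), Ube2o without a filter (0.0721) and with the Y-linked covariate (0.0548), Rnf213 with the mean of probe sets (0.25 log2, 0.106), Tnrc6c with the block (0.0507), Birc5 and Gga3 with only the groups compared (0.0576 each), and Gga3 and Ten1 without a filter (0.0754 and 0.0654) and with the block (0.135 and 0.0847). Against wild type on the arrays labelled Sphk1 null, Usp36 was lost with the block (0.0754), with only the groups compared (0.0809) and with the mean of probe sets (-0.14 log2, 0.223), and St6galnac2 was called with the Y-linked covariate (0.52 log2, 0.0304).

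With the replicate number as a block, 15 members were called in hTNF against wild type (10 higher, 5 lower), 23 in the arrays labelled Sphk1 null against wild type (15 higher, 8 lower) and 1 between the transgenic groups, and the median size near Sphk1 was 0.187. Over all 24115 probe sets the block gave 6515, 7770 and 2 calls in the same order, against 7965, 9395 and 2 without it. The labels do not say that a number marks a shared litter or day. Same-numbered arrays of the 2 transgenic groups correlated in their deviations from the group means at 0.228, 0.054 and 0.251, not all above 0.1. Pairs with different numbers ran from -0.485 to 0.37. The highest was replicate 2 of the arrays labelled Sphk1 null with hTNF replicate 3. These values do not settle whether the numbers mark pairs. The cause of these changes was not tested.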
